A study of Homo sapiens with 6 samples.

Results

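Toll-like receptors (TLRs) and the proteins that work directly beside them were followed here as a set of 10 genes in HCCC9810 cells, an established human cholangiocarcinoma cell line, after treatment with isolinderalactone (ILL), a plant sesquiterpene lactone. The set holds the coreceptors LY96 and CD14, the receptors TLR1, TLR2, TLR3, TLR4, TLR5 and TLR6, and the adaptors MYD88 and TICAM1. These are 10 of the 19470 genes in the count table. They were chosen by name and in part on measured values, because LY96 and TICAM1 had higher counts with ILL in these same libraries. Their fold changes between ILL and control are therefore a description, and no p-value is given for them.

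TLRs are pattern recognition receptors that bind microbial products or molecules released from damaged cells. MYD88 serves every receptor of the set except TLR3 and leads through IRAK kinases, TRAF6 and TAK1 to NF-κB, whereas TICAM1 (also called TRIF) serves TLR3 and endocytosed TLR4 and leads to TBK1, IRF3 and interferon genes as well as to NF-κB. LY96 (MD-2) is the lipopolysaccharide-binding partner of TLR4, and CD14 hands lipopolysaccharide and lipopeptides to TLR4 and TLR2.

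RNA-seq was made from wild-type HCCC9810 cells that received 20 μM ILL or the DMSO vehicle alone, both for 24 h, with 3 libraries per group. The design asks how ILL changes gene expression in these cells, 1 cell line at 1 dose and 1 time. Nothing in the labels says that the libraries of a group came from separate cultures, so the p-values below measure only the spread between these samples, which may be technical. Total counts ranged from 34282764 to 37758569 per library. No pair of libraries within a group agreed within sampling noise (chi-square per degree of freedom from 5.09 to 11.5). The share of the 10 most counted genes was 5.2% to 5.45% without ILL and 8.12% to 8.25% with it. A differentially expressed gene (DEG) had an adjusted p-value under 0.05 in edgeR's quasi-likelihood test and a fold change above 2 or under 0.5. Of 13066 genes tested, 12.5% were DEGs with higher and 11.4% DEGs with lower expression with ILL.

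The promoter table of RefSeq (GRCh38.p14), 250 bases before to 50 after each gene's start, held 8 of the 10 genes, all but LY96 and TLR1. A set of 4 letter patterns was searched on both strands of these 300-base windows, and they were settled after the promoters had been read. The κB pattern GGGANNNTCC, bound by NF-κB in textbook examples, lay in 2 of the 8 windows, those of TLR2 and TICAM1, and in 5.07% of the 35116 promoters of the table. Its looser form GGGNNNNNCC, which includes the stricter one, lay in 4 of the 8 and in 58.7% of all promoters. The interferon-stimulated response element TTTCNNTTTC, bound by IRF proteins, lay in the windows of MYD88 and TLR3 and in 3.57% of all promoters. The AP-1 pattern TGANTCA lay in the window of CD14 and in 7.71% of all promoters. The 4 sites of the stricter κB and the interferon pattern are printed 5′ to 3′ on the gene's strand with the match in capitals, because 3 of them belong to genes with higher levels in every ILL library and the other to TLR2, whose groups overlapped.
TICAM1, chr19:4831812-4831841, minus strand: ggcgacccgGGGACTTTCCCggtgctgcgg
TLR2, chr4:153684235-153684264, plus strand: ccggccgcgcGGACTTTCCCttttgcttac
MYD88, chr3:38138590-38138619, plus strand: gcgcttctcgGAAAGCGAAAgccggcgggg
TLR3, chr4:186069142-186069171, plus strand: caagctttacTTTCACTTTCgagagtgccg

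The TICAM1 capitals hold overlapping matches on both strands, from position -120 to -110 counted from the RefSeq start. The TLR2 match ran from -35 to -26, the MYD88 match from -61 to -52, and the TLR3 match spanned the start, from -4 to 6. The TICAM1 site is set here in the 250 bases before the start of the gene, which were 69.2% G or C against 39.2% for TLR3. A match of letters is a description of the sequence, and no binding was measured.
TICAM1, chr19:4831713-4831962, minus strand: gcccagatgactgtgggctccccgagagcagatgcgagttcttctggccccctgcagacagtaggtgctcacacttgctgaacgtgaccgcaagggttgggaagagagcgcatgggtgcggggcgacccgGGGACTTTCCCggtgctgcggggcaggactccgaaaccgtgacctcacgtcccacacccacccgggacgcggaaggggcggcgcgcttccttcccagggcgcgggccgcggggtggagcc

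Both adaptors were higher in every ILL library, TICAM1 by a larger factor than MYD88, and among the receptors TLR3 and TLR6 were higher while TLR2 and TLR5 lay in the same range in both groups. LY96 was almost absent from control libraries and present at low counts in all 3 ILL libraries. In total 6 of the 10 genes were past the DEG cutoffs in the higher direction (LY96, TLR3, TLR4, TLR6, MYD88 and TICAM1) and 0 in the lower one, beside 12.5% and 11.4% of all tested genes. Every ILL library lay above every control library for 6 genes (LY96, TLR1, TLR3, TLR6, MYD88 and TICAM1), as it did for 37.5% of all tested genes. The median log2 fold change of the 10 genes was 1.21, and that of all tested genes was -0.0012. All 10 passed the filter on low counts, LY96 through its ILL libraries alone, and since the contrast helped to choose them, nothing is read from these counts. The cutoffs include the adjusted p-value of the fit, so for these 10 genes being past them is a description too, not a test result.

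**Figure D1:**
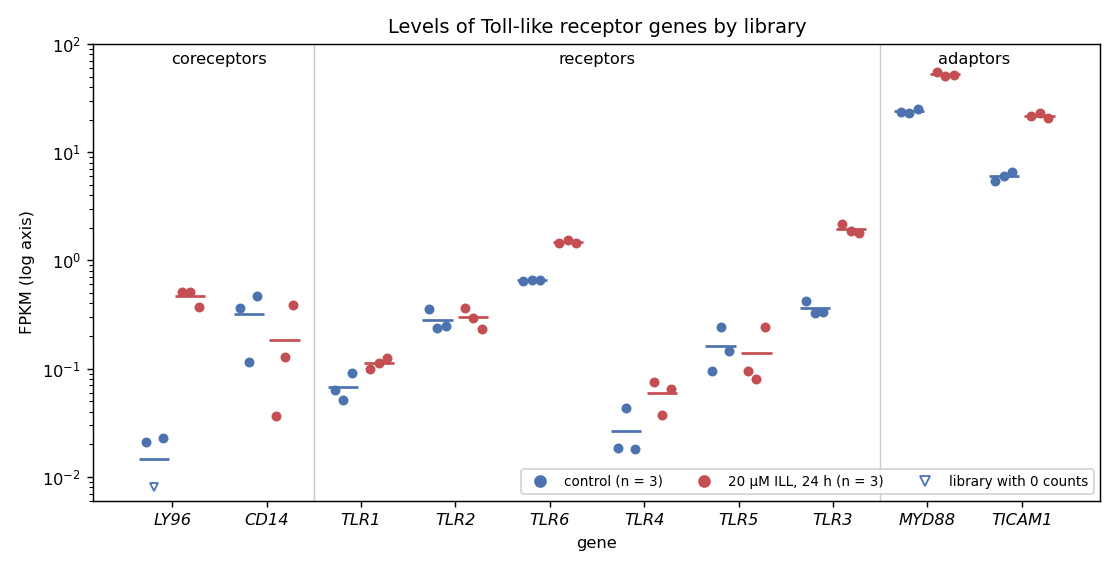
Level of each of the 10 genes in every library, in FPKM (log axis), grouped as coreceptors, receptors and adaptors. Filled points are libraries, bars are group means (n = 3), and the open triangle marks the LY96 library with 0 counts, drawn at the foot of the axis. MYD88 and TICAM1 sit far above the receptors in both groups.

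LY96, the secreted glycoprotein that lets TLR4 recognise lipopolysaccharide, had 1, 0 and 1 counts in the control libraries (replicates 1 to 3, as in all such series below) and 23, 23 and 17 with ILL. In FPKM, fragments scaled by transcript length and library size, these were 0.0209, 0 and 0.0227 against 0.509, 0.512 and 0.374. The groups were far apart, but the control level is within counting error of 0. A count of 0 in control replicate 2 allows up to 3 counts, or 0.0854 CPM (counts scaled to a common library size). The summed counts of 63 and 2 gave a ratio of 33 after scaling by library size, with a 95% counting interval from 8.76 to 278 that covers counting error only. The fitted log2 fold change was 4.80 (standard error, SE, 0.88), a value that depends on the prior count the fit adds. Each SE here was worked back from the fold change and the F statistic of the test. On the scale of log2(FPKM + 1), where the pseudocount is larger than either level, the LY96 value was 0.53 and not past the cutoffs.

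CD14, the lipopolysaccharide coreceptor best known from monocytes, had 21, 6 and 25 counts in control libraries and 2, 7 and 21 with ILL. The groups overlapped, and libraries of the same group differed more from each other than the group means did. The fitted log2 fold change was -0.72 (standard error 0.68), and without ILL replicate 3 it was -1.84.

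TLR3, the endosomal receptor for double-stranded RNA, showed the largest fold difference among the 6 receptors. Its counts were 96, 67 and 70 in control libraries and 467, 398 and 387 with ILL, and its level was 0.361 ± 0.0537 FPKM (SD, n = 3) against 1.95 ± 0.204 FPKM (SD, n = 3). The lowest ILL library lay far above the highest control library. The log2 fold change was 2.49 (standard error 0.16), a fold of 5.63, and leaving out any library kept it between 2.41 and 2.62. The gene lies on chromosome 4 of GRCh38 from 186069152 to 186088069, plus strand.

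TLR6, which pairs with TLR2 to bind diacylated lipopeptides, had 190, 175 and 179 counts in control libraries and 401, 429 and 399 with ILL. Control libraries lay close together at 0.657 ± 0.00812 FPKM (SD, n = 3), and all ILL libraries were above them at 1.48 ± 0.0672 FPKM (SD, n = 3). The log2 fold change was 1.24 (standard error 0.13). On the scale of log2(FPKM + 1), which understates differences at such levels, the values were 0.58 for TLR6, no longer past the fold cutoff, and 1.11 for TLR3, still past it.

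TLR1, the other partner of TLR2 and part of the receptor for triacylated lipopeptides, had 19, 14 and 25 counts in control libraries and 28, 32 and 36 with ILL. The groups did not overlap, yet the log2 fold change of 0.79 (standard error 0.46) was not past the DEG cutoffs. TLR1 and TLR6 are neighbours on the minus strand of chromosome 4, from 38790677 to 38856817 and from 38823715 to 38856817 of GRCh38, and their annotated exons share 57 bases. Of the stretches of 50 bases in TLR1 transcripts, 5.33% also occur in TLR6, so reads there cannot be assigned to either gene with certainty, and how the authors counted such reads is not given in the sources used here.

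TLR2 is the common partner of TLR1 and TLR6. It had 126, 77 and 81 counts in control libraries and 123, 99 and 78 with ILL. The groups covered the same range, with a log2 fold change of 0.16 (standard error 0.27) and a summed-count ratio of 1.11 (95% counting interval 0.937 to 1.31). The partners of the TLR2 receptors thus differed in their values, with TLR6 past the cutoffs and TLR1 and TLR2 not, and the difference between these genes was not tested.

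TLR4, the lipopolysaccharide receptor that works with LY96, had 9, 19 and 8 counts in control libraries and 34, 17 and 30 with ILL. The groups overlapped, because control replicate 2 lay above ILL replicate 2. The log2 fold change was 1.22 (standard error 0.53), just past the cutoffs, and the call did not hold when control replicate 1 (1.01), control replicate 3 (1.01), ILL replicate 1 (1.02) or ILL replicate 3 (1.14) was left out. It was also lost with 5 of the 6 other alternatives that tested the gene, and without control replicate 2 the value was 1.74. Another gene model on the same strand, AL160272.2, shares 558 exonic bases with TLR4 and is no row of the count table.

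TLR5, the flagellin receptor, had 19, 44 and 27 counts in control libraries and 18, 15 and 46 with ILL. The spread within each group was wider than the difference between them, with a log2 fold change of -0.14 (standard error 0.50) that ranged from -0.80 to 0.27 when each library was left out in turn. For TLR5 the summed-count ratio was 0.919, and its 95% counting interval, 0.671 to 1.26, held 1. The counting intervals of TLR1 (ratio 1.73, 1.24 to 2.44) and CD14 (0.604, 0.372 to 0.965) did not hold 1. Such an interval covers counting error only, so whether depth or the spread between libraries limited each gene was not tested.

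**Figure D2:**
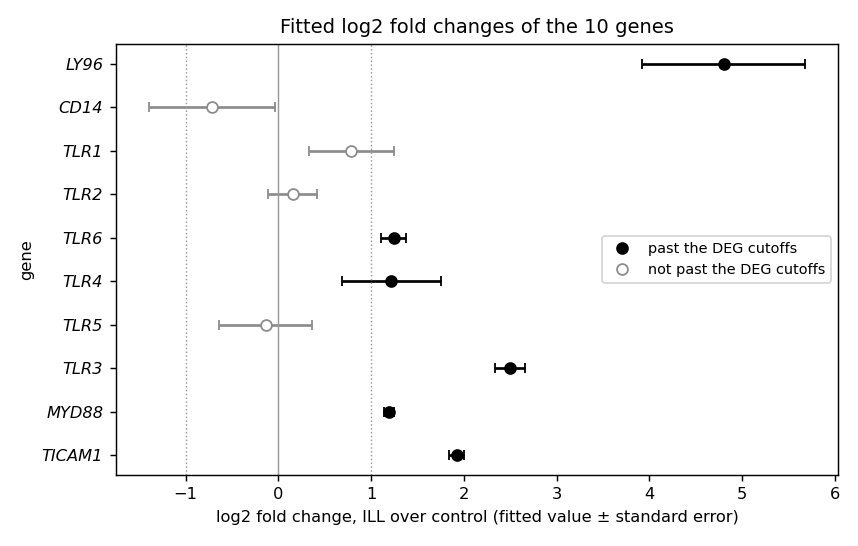
Fitted log2 fold change of each gene, ILL over control, with its standard error as a bar (3 libraries per group). Filled points are past the DEG cutoffs, the dotted lines mark a fold change of 2 and of 0.5, and the genes with few counts (LY96, CD14, TLR1, TLR4, TLR5) have the wide bars. For these genes the filling is a description, not a test result.

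The make-up of receptor transcripts in a library can be read from the summed FPKM of TLR1 to TLR6. This sum was 1.6, 1.56 and 1.5 in control libraries and 4.26, 3.95 and 3.89 in those with ILL. TLR6 made up the greatest share in controls, 42.3% ± 1.88 (SD, n = 3), and the share of TLR3 was 23.2% ± 2.86 (SD, n = 3) in controls and 48.2% ± 2.62 (SD, n = 3) with ILL. The TLR3 to TLR6 ratio of FPKM was 0.652, 0.494 and 0.505 in control libraries and 1.5, 1.2 and 1.25 with ILL, with no overlap between the groups. Which of these receptors is the more abundant with ILL depends on gene length. The FPKM table implies 6015 bases for TLR3 and 7764 for TLR6, while the exons annotated in GENCODE 29 add up to 6724 and 6035. With the annotated lengths, an alternative added after seeing the data, the ratio was 0.453, 0.344 and 0.351 in controls and 1.05, 0.833 and 0.871 with ILL, so that TLR3 was above TLR6 in 1 of 3 ILL libraries, and its share was 16.7% ± 1.57 in controls and 38.3% ± 2.07 with ILL (SD, n = 3). The share of TLR2 was 17.9% ± 3.63 (SD, n = 3) in controls and 7.33% ± 1.33 (SD, n = 3) with ILL, at a near-equal TLR2 level.

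**Figure D3:**
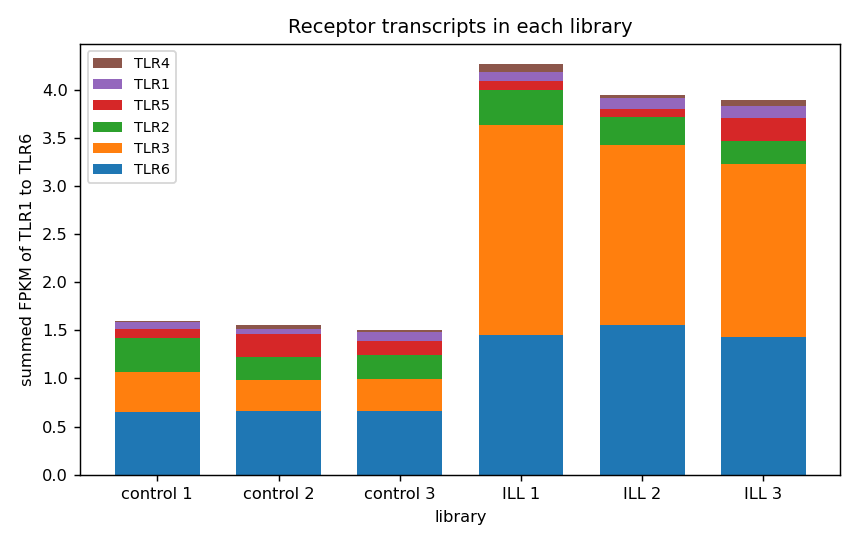
Summed FPKM of TLR1 to TLR6 in each library, stacked by receptor, with the axis from 0. The sum lies between 1.5 and 1.6 in control libraries and between 3.89 and 4.26 with ILL, and most of the difference is TLR3 and TLR6.

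MYD88, the adaptor through which most TLRs and the IL-1 receptors signal, was the most abundant gene of the set. Its counts were 2415, 2130 and 2365 in control libraries and 5269, 4829 and 4994 with ILL, and its level was 24 ± 1.14 FPKM (SD, n = 3) against 52.3 ± 2.24 FPKM (SD, n = 3). The groups were separated by far more than the spread within them, with a log2 fold change of 1.19 (standard error 0.06). The gene spans 38138478 to 38143022 on the plus strand of chromosome 3.

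TICAM1, the adaptor of TLR3, had 544, 559 and 610 counts in control libraries and 2046, 2197 and 1980 with ILL. Its level was 6 ± 0.594 FPKM (SD, n = 3) against 21.7 ± 1.27 FPKM (SD, n = 3), again with wide separation of the groups. The log2 fold change was 1.92 (standard error 0.08), a fold of 3.8, and stayed between 1.84 and 1.99 when each library was left out. TICAM1 lies on the minus strand of chromosome 19 from 4815932 to 4831704. Neither adaptor shares a stretch of 50 bases with another annotated gene.

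Since TICAM1 differed by the larger factor, the adaptors stood closer together with ILL. The ratio of MYD88 to TICAM1 in FPKM was 4.42, 3.79 and 3.86 in control libraries and 2.56, 2.19 and 2.51 in ILL libraries, with no overlap. With annotated lengths it was 2.71 ± 0.232 and 1.63 ± 0.137 (SD, n = 3). MYD88 and then TICAM1 headed the order of levels in both groups. Below them stood TLR6 and TLR3 in controls and TLR3 and TLR6 with ILL, and with annotated lengths TLR6 and TLR2 in controls and TLR6 and TLR3 with ILL. By its mean, LY96 was last of the 10 in controls (above TLR4 with annotated lengths), at 0.0145 ± 0.0126 FPKM (SD, n = 3). With ILL its mean was above those of TLR2, CD14, TLR5, TLR1 and TLR4, at 0.465 ± 0.0785 FPKM (SD, n = 3). Neighbours in this order whose ranges overlapped were TLR3, CD14, TLR2 and TLR5 and, at its foot, TLR4 and LY96 in controls, and TLR2, CD14, TLR5 and TLR1 with ILL. LY96 and CD14, no neighbours in it, also overlapped with ILL, at 0.374 and 0.384 FPKM in ILL replicate 3. The lengths behind the FPKM differ from the annotated exonic lengths for all 10 genes, for example 1267 against 607 bases for LY96, 9443 against 5217 for TLR2, 7976 against 4535 for TLR1, 5332 against 7765 for TLR5 and 2697 against 3989 for MYD88. This touches the order, shares and ratios between genes but not the fold change of any 1 gene.

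The rest of the pathway was read from 9 lists of 92 genes, of which 76 were tested. Among them 26 were DEGs with higher and 3 with lower expression, and 47 were not DEGs, beside 12.5% and 11.4% of all tested genes. The 26 include CXCL10 and PELI2, which passed the filter on low counts through their ILL libraries alone. By adjusted p alone 46 were higher and 15 lower, beside 36.2% and 36.9% of all tested genes. The median log2 fold change was 0.52 against -0.0012 for all genes. The lists, too, were chosen with earlier results of these data known, so these counts and medians are a description. Up to 3 genes at each end of a list are named by rule, and other genes are named after their values were seen.

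**Figure D4:**
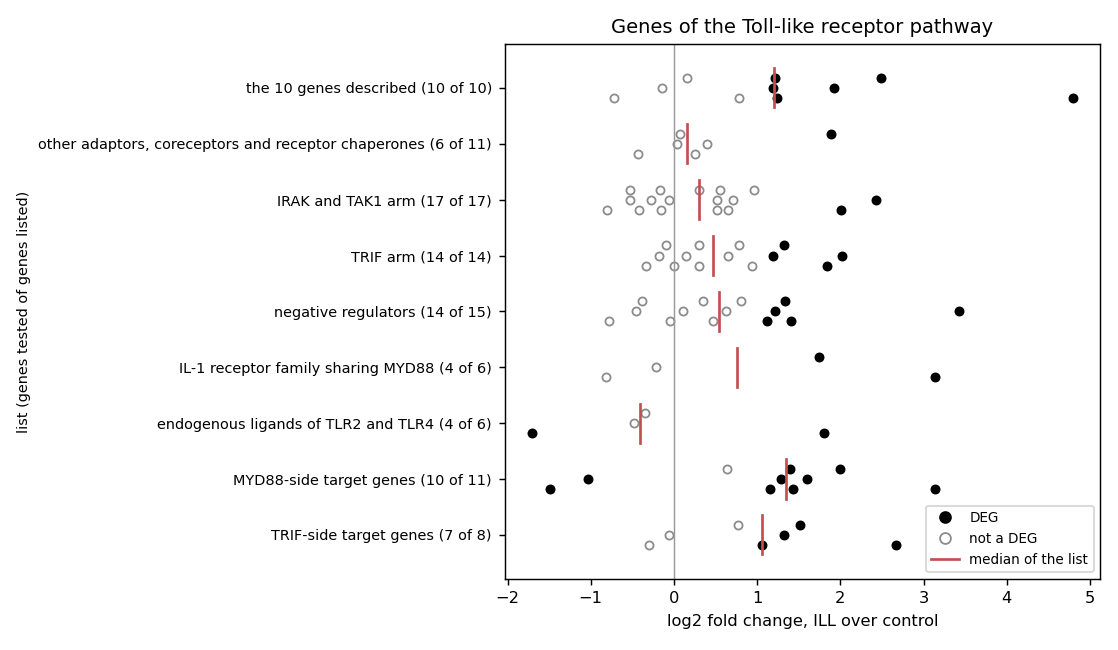
Log2 fold change, ILL over control, of each tested gene in the set of 10 and in 8 further pathway lists, with the number tested of those listed. Filled points are DEGs, open points are not, red lines are list medians, and the DEGs lie mostly to the right of 0, with HMGB1, CXCL1 and CCL20 the 3 to the left.

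The other TLRs were close to the detection limit. TLR8 had 0 counts in all libraries, TLR7 had 4 counts in ILL replicate 1 and 0 in the others, TLR9 had at most 8 and TLR10 at most 6, and 0 of the 4 were tested. Of the other adaptors, coreceptors and receptor chaperones, 6 of 11 were tested and 1 was a DEG, higher, beside 12.5% of all tested genes. SARM1, a TIR-domain protein with NAD-cleaving activity, rose from 2.34 ± 0.328 to 8.64 ± 0.893 CPM (SD, n = 3), by 1.89 on the log2 scale (SE 0.18, adjusted p = 1.32e-09). UNC93B1, which carries TLR3 to endosomes, had a log2 fold change of 0.04 (adjusted p = 0.56). LY86, the LY96 relative that pairs with CD180, had 0 counts in all libraries.

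In the arm from IRAK kinases to TAK1, 17 of 17 genes were tested, 2 were DEGs, both higher, and 15 were not, a share of DEGs near the 12.5% of all tested genes. IRAK2, an IRAK family member of the MYD88 complex, had 216, 227 and 210 counts in control libraries and 1116, 1103 and 1141 with ILL. All ILL libraries lay above all control libraries, and the log2 fold change was 2.43 (standard error 0.10, edgeR adjusted p = 7.45e-17). IRAK1, its relative, fell by less than the fold cutoff, with a log2 fold change of -0.53 (adjusted p = 4.25e-10), as did UBE2N, the ubiquitin-conjugating enzyme used by TRAF6, at -0.80 (adjusted p = 1.11e-11). TRAF6 itself was at 0.70 (adjusted p = 1.62e-07), also under the cutoff. The second DEG, PELI2, rested on 10, 0 and 0 counts against 11, 11 and 17 and passed the filter through its ILL libraries alone. Its call was lost when control replicate 2 or 3 or any ILL library was left out, with values from 1.47 to 6.72.

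Downstream of TICAM1, 14 of 14 genes were tested and 4 were DEGs, all higher, beside 12.5% of all tested genes. RIPK3, a kinase of necroptosis that TICAM1 can bind, rose from 3.32 ± 0.202 to 13.5 ± 1.28 CPM (SD, n = 3), or 2.02 on the log2 scale (SE 0.14, adjusted p = 3.74e-12). The interferon regulatory factor IRF7 rose from 29.4 ± 2.79 to 106 ± 9.73 CPM (SD, n = 3, log2 fold change 1.84, adjusted p = 9.54e-17), IRF5 had a log2 fold change of 1.32 (adjusted p = 2.74e-08) and TRADD 1.19 (adjusted p = 4.76e-13). The kinase TBK1 was at 29.1 ± 0.786 CPM in controls and 29 ± 1.54 CPM with ILL (SD, n = 3, adjusted p = 0.963). IRF3, the factor TBK1 phosphorylates, had a log2 fold change of -0.33 (adjusted p = 1.35e-05), under the fold cutoff.

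Of the negative regulators of TLR signalling, 14 of 15 were tested. DEGs numbered 5, all higher, beside 12.5% of all tested genes, and 9 were not DEGs. ATF3, a stress-induced repressor of inflammatory genes, had 87, 94 and 87 counts in control libraries and 941, 1020 and 789 with ILL, or 3.42 on the log2 scale (SE 0.13, adjusted p = 3.16e-17). The deubiquitinase CYLD followed at 1.40 (adjusted p = 6.7e-13), the phosphatase DUSP1 at 1.34 (adjusted p = 7.3e-15), the ubiquitin-editing enzyme TNFAIP3 at 1.22 (adjusted p = 1.37e-14) and the ubiquitin ligase TRIM38 at 1.12 (adjusted p = 3.02e-12). ATF3 is also a gene of the general stress response. By adjusted p alone 9 genes of this list were higher and 2 lower, beside 36.2% and 36.9% of all tested genes. The 2 lower were SOCS1, at -0.78 (edgeR adjusted p = 0.000967), and OTULIN, at -0.46 (edgeR adjusted p = 5.36e-05), both under the fold cutoff.

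IL-1 family receptors share MYD88. Of 6 listed, 4 were tested and 2 were DEGs, both higher, beside 12.5% of all tested genes. IL1RL1, the receptor for IL-33, rose from 1.81 ± 0.366 to 16 ± 0.914 CPM (SD, n = 3), or 3.14 on the log2 scale (SE 0.16, adjusted p = 4.4e-15), and IL18R1 was at 1.74 (adjusted p = 0.00361) with at most 52 counts. IL1RAP, the shared accessory chain, fell by less than the cutoff, with a log2 fold change of -0.81 (adjusted p = 5.7e-10).

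Among proteins that can act as endogenous ligands of TLR2 and TLR4, 4 of 6 were tested and the DEGs went in both directions. HMGB1, a chromatin protein that signals when released, had 36400, 33527 and 29754 counts in control libraries and 10383, 8949 and 9758 with ILL, or -1.71 on the log2 scale (SE 0.06, adjusted p = 1.56e-18). The matrix protein TNC rose from 136 ± 15 to 473 ± 48.6 CPM (SD, n = 3, log2 fold change 1.80, adjusted p = 4.96e-17). These are transcript levels, and release of either protein was not measured.

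Of the target genes that TLR signals induce through MYD88 and NF-κB, 10 were tested. DEGs with higher expression numbered 7 and those with lower expression 2, beside 12.5% and 11.4% of all tested genes. CXCL2, the 1 that was no DEG, was higher by less than the fold cutoff (log2 fold change 0.64, edgeR adjusted p = 0.000229). PTGS2, the inducible cyclooxygenase, rose from 4.03 ± 0.869 to 35.3 ± 1.27 CPM (SD, n = 3, log2 fold change 3.13, adjusted p = 1.99e-17). The cytokine genes IL1A and IL1B followed at 2.0 (adjusted p = 1.41e-20) and 1.60 (adjusted p = 5.9e-18). IL6 was at 1.43 (adjusted p = 1.56e-06), the adhesion molecule gene ICAM1 at 1.40 (adjusted p = 3.68e-11), the chemokine gene CXCL8 at 1.29 (adjusted p = 5.3e-11) and NFKBIA, the NF-κB inhibitor and feedback target, at 1.15 (adjusted p = 2.01e-13). The chemokine genes CXCL1 and CCL20 fell, at -1.49 (adjusted p = 8.39e-08) and -1.04 (adjusted p = 9.14e-12). TNF, the remaining gene of the 11, had at most 10 counts and was not tested.

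On the TRIF and interferon side, 7 of 8 target genes were tested and 4 were DEGs, all higher, beside 12.5% of all tested genes. Not DEGs were IFIT3 (log2 fold change 0.76, adjusted p = 5.43e-10), IFIT2 (-0.06, adjusted p = 0.5) and CCL5 (-0.30, adjusted p = 0.245). ISG15, a ubiquitin-like modifier, rose from 533 ± 41.4 to 1330 ± 27.3 CPM (SD, n = 3, log2 fold change 1.32, adjusted p = 5.73e-17), and IFIT1, an RNA-binding antiviral protein, had a log2 fold change of 1.06 (adjusted p = 4.05e-14), close to the cutoff. CXCL10, also a DEG, had 7, 0 and 2 counts against 22, 21 and 13. It passed the filter on low counts through its ILL libraries alone, so no p-value is given. IFNL1 had 43, 6 and 2 against 32, 62 and 42, overlapping groups, and its call was lost without control replicate 2, control replicate 3 or ILL replicate 2 (values over all such fits from 1.01 to 3.48). IFNB1 had 2, 4 and 0 counts against 15, 0 and 0 and was not tested.

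Several genes of the set are best known from myeloid cells, and in bulk RNA fewer cells of a type and less RNA per cell cannot be told apart. All 7 biliary epithelial markers (KRT7, KRT19, KRT8, KRT18, EPCAM, CDH1 and SOX9) were tested, and their summed level lay between 9050 and 9292 CPM in control and between 9531 and 10120 CPM in ILL libraries. The sum covers markers that went in different directions, 3 higher and 4 lower by adjusted p, beside 36.2% and 36.9% of all tested genes. CDH1 (E-cadherin) was a DEG, at 247 ± 9.45 CPM against 1036 ± 59.5 CPM (SD, n = 3, log2 fold change 2.07, adjusted p = 1.02e-20), KRT7 was at 0.64 (adjusted p = 2.56e-12), KRT18 at -0.82 (adjusted p = 4.22e-14) and SOX9 at -0.56 (adjusted p = 6.94e-08). Of 11 monocyte and macrophage markers 1 was tested, LYZ, with a log2 fold change of 0.78 (adjusted p = 0.0578). Their summed level was 0.933 to 1.39 CPM in controls and 2.09 to 3.6 CPM with ILL. Of this sum LYZ held 1.34, 1.05 and 0.679 CPM in controls and 1.54, 1.74 and 2.0 CPM with ILL. FCGR1A and AIF1 had 0 counts in all libraries. ILL replicate 1 held 27 counts of SPI1, 16 of ITGAM, 11 of FCGR3A, 9 of PTPRC and 8 of TYROBP, against at most 8, 6, 0, 1 and 0 in any other library, while its 2 counts of CD14 were the fewest of all libraries. Without ILL replicate 1 the log2 fold changes were 4.74 for LY96, 2.41 for TLR3, 1.26 for TLR6, 1.16 for MYD88 and 1.94 for TICAM1, and the pathway lists held 29 DEGs, as with it.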

How the data were processed

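RNA-seq of HCCC9810 cells comprised 3 control and 3 ILL libraries, grouped by the sample labels. The authors deposited raw read counts and FPKM per gene symbol, 1 column per library (0 columns unmapped). Submitters' processing notes name GRCh38 and DESeq2. The aligner, counter and annotation are not given in the sources used here. After filterByExpr and TMM, ILL was compared with control by the quasi-likelihood test of edgeR 4.0.16 (R 4.3.3), with Benjamini-Hochberg adjustment over all 13066 genes and a biological coefficient of variation of 0.0717. Standard errors are the size of the log2 fold change divided by the square root of the F statistic of that test. Alternatives used DESeq2 1.42.0 and limma 3.58.1 on FPKM. The fit was tested on simulated data. The 10 genes and all lists were chosen with earlier results of these data known. Named pathway genes were at most 3 DEGs at each end of a list averaging 1 CPM or more and not overlapping between groups. Positions come from GENCODE 29 and promoters from RefSeq. Protein, qPCR and xenograft experiments were not analysed here.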

Additional observations from a re-analysis of the deposited data

How the results depend on the processing

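The count of DEGs was 3120 (1635 higher, 1485 lower). It was 1591 (668 higher, 923 lower) with limma on log2(FPKM + 1), and 1609 (680 and 929) with the same and no filter, while log2(FPKM + 0.1) gave 909 higher. Adjusted p alone gave 9547 (4726 and 4821). The share of DEGs that were higher was 52.4% in edgeR, 47.4% with library size only, and 42%, 42.2% and 42.3% on the FPKM scales. Leaving out each library gave 3083 to 3165 DEGs. Pathway DEGs numbered 29 (26 higher, 3 lower), 19 (16 higher) on log2(FPKM + 1) with or without the filter, 61 (46 and 15) by adjusted p alone, and 28 to 29 with a library left out. Of 268 alternative values of the 18 pathway genes named by rule, 259 stayed past the cutoffs and 0 reversed.

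Among the 10 genes, log2(FPKM + 1) gave 0.53 for LY96, 0.0587 for TLR1, 1.11 for TLR3, 0.0449 for TLR4, 0.58 for TLR6, 1.09 for MYD88 and 1.70 for TICAM1, all nearer 0 than in edgeR. The pseudocount exceeds both levels of LY96, TLR1 and TLR4. It also exceeds the control levels of TLR3 (0.361 FPKM) and TLR6 (0.657 FPKM), but not their levels with ILL. For MYD88 and TICAM1 the cause was not tested, and the median of all genes was -0.0862 on this scale with the filter. With log2(FPKM + 0.1), where the median of all tested genes was -0.101, TLR3 was at 2.15, TLR6 at 1.06 and MYD88 at 1.12. Scaling by library size only, which moved the median of all genes to -0.07, gave 1.17 for TLR6 and 1.12 for MYD88. DESeq2 gave 5.06 for LY96. With a library left out, LY96 lay between 4.31 and 5.16, CD14 between -1.84 and -0.23 and TLR4 between 1.01 and 1.74. The number past the DEG cutoffs, 6, was 3 to 6 over these settings. Part of this range is genes removed by a filter. LY96 and TLR4 were not tested with at least 10 counts in every library, nor on the FPKM scales with the filter. Since the contrast helped to choose the 10 genes, the number is a description and nothing is read from it. Among the pathway genes, IFIT1 was not past the DEG cutoffs with library size only or on the FPKM scales.

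Same-numbered control and ILL libraries deviated from their group means with correlations of 0.00638, -0.02 and -0.0745 across genes. Differently numbered pairs gave -0.0717 to 0.083, so no effect shared by replicate number was seen. Whether same-numbered libraries were handled together is not given in the labels. With the replicate block edgeR called 3111 DEGs (1627 higher, 1484 lower) and 29 pathway genes, TICAM1 was at 1.93, and TLR4, at 1.24, was not called. With annotated exonic lengths, added after seeing the data, the mean TLR3 to TLR6 ratio was 0.383 in controls and 0.916 with ILL (0.55 and 1.32 as deposited), and that of MYD88 to TICAM1 2.71 and 1.63 (4.02 and 2.42). Genes with few counts (LY96, CD14, TLR1, TLR4, TLR5) limit what these libraries can show.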

Other observations

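The genes whose values over the 6 libraries lay nearest to those of TICAM1, by Euclidean distance of log2(CPM + 1) centred on the control mean among 12044 genes with a mean of at least 1 CPM, were TMC4 (distance 0.104), DAPK3 (0.113) and TGFB1I1 (0.123). TMC4, a transmembrane channel-like gene, had a mean of 28.4 CPM in control libraries and 102 CPM with ILL, and DAPK3, a death-associated protein kinase, 42.6 and 159 CPM. The levels of these genes thus differed from that of TICAM1, at 15.7 and 59.6 CPM, while their log2 fold changes of 1.85, 1.90 and 1.86 lay close to its 1.92. For LY96 the nearest were MAN1B1 (0.0479), ADM (0.0705) and ALDH3A1 (0.0725), with log2 fold changes of 0.70, 0.68 and 0.66. These values lie far from the fitted 4.80 of LY96, because log2(CPM + 1) compresses a gene below 1 CPM. The distance was measured over libraries of the same contrast and is a description.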
